A study of Homo sapiens with 16 samples.

Results

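The genes described here are the translation factors of human cells and the host genes of small nucleolar RNAs (snoRNAs), as they were counted in SH-SY5Y neuroblastoma cells on culture plates and on conductive films. Members were chosen by gene symbol: names that begin with EIF1 to EIF6 or with EEF1 or EEF2, names made of SNHG and a number, and GAS5. Pseudogenes, which were 155 rows, 7 antisense or divergent transcripts and the 4 EIF2AK kinases were left out. That leaves 96 of 69222 gene rows, of which 52 are EIF genes, 15 are EEF genes and 29 are SNHG genes with GAS5.

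SH-SY5Y is an established line, a subclone of a neuroblastoma culture, that slows its division and extends neurites when serum is lowered and retinoic acid and the neurotrophin BDNF are given. Polyadenylated RNA was sequenced in 8 groups of 2 libraries. In 6 groups the cells were differentiated on P(rGO), which holds reduced graphene oxide, on the conducting polymer blend PEDOT:PSS, or on indium tin oxide (ITO), each with and without electrical stimulation (ES). Films carried poly-L-lysine and laminin, a coat that is not mentioned for plates. The other groups were cells differentiated on culture plates and cells left untreated on plates. The differentiation protocol, which the labels spell out for films and name for plates, had serum at 5% from day 2, 2.5% from day 3 and 1% from day 5, retinoic acid at 10 µM from day 3 to day 6 and then BDNF at 50 ng/mL for 4 days, and stimulation was 0.1 V at 1 Hz for 8 h per day on 4 days. All groups are 1 cell line, and no stimulation was given on plates, so film and plate cannot be compared under stimulation.

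Translation begins when initiation factors (eIF) bring the small ribosomal subunit, the initiator tRNA and the capped mRNA together, and proceeds when elongation factors (eEF) deliver aminoacyl-tRNA and move the ribosome by a codon. Several of these mRNAs, like those of all cytosolic ribosomal proteins, begin with a run of pyrimidines at the cap, the 5′ terminal oligopyrimidine (TOP) motif, through which mTOR signalling controls their translation. SNHG genes and GAS5 carry snoRNAs in their introns, which guide chemical modification of ribosomal RNA. Many of their spliced transcripts also begin with pyrimidines and are degraded by nonsense-mediated decay.

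Genes received 15600410 to 20851000 reads in a library, and levels are given as CPM, which are counts scaled to the size of each library after TMM scaling. The members took 1.67% to 2.03% of the assigned counts in the 12 film libraries. They took 2.62% and 2.24% in differentiated plates, and 2.61% and 3.47% in untreated plates. Without EEF1A1 and EEF2 the shares were 0.90% to 1.01% on films, 1.12% and 0.99% in differentiated plates, and 1.15% and 1.45% in untreated plates. Films and differentiated plates then overlapped. Ribosomal protein genes took 2.88% to 3.66% on films, 5.62% and 4.18% in differentiated plates, and 6.30% and 9.07% in untreated plates. In the untreated pair the libraries stood apart: the median gap between them over 80 members was 0.63 on the log2 scale, against 0.26 in differentiated plates and 0.07 to 0.17 in the 6 film groups. Values without the second untreated library are given where leaving it out ended the call of a described gene. They are given too where it moved the value by more than 1.5 times. EIF4E3 and EIF4G3 are exceptions, and theirs are not given. Counts of calls with a library left out come without the share of all genes called in that fit. Such counts are not read as results about the genes counted. The labels do not say whether the 2 libraries of a group are separate cultures, and the p-values thus measure the spread between libraries only, which may be of technical origin.

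Of 11 neuroblastoma markers, 10 passed the filter on low counts, and the list summed to 5951 to 7475 CPM on films, 7328 and 7603 CPM in differentiated plates, and 7713 and 7685 CPM in untreated plates. The 14 genes of cycling cells summed to 379.7 to 1149 CPM on films, 1377 and 755 CPM in differentiated plates, and 2708 and 2797 CPM in untreated plates. The members summed to 26242 and 22132 CPM in differentiated plates and 28000 and 39650 CPM in untreated plates. Both sums were lower after differentiation, by unlike amounts. On stimulated P(rGO) the cycling genes had the lowest sums of the films, 379.7 and 450.6 CPM, and the members the highest, 20658 and 19396 CPM. The 7 fibroblast genes summed to 126.5 to 251 CPM on films, 176 and 140.1 CPM in differentiated plates, and 500.1 and 347.5 CPM in untreated plates. The part of these cells in the results below was not tested, and in bulk RNA fewer cells of a type and less RNA per cell cannot be told apart.

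Of the 96 members, 80 had enough counts to be tested. Those listed at 0 in every library were EEF1B2 and EEF1G, subunits of the exchange factor that recharges eEF1A, EIF5A, the hypusine-bearing elongation and termination factor, SNHG26 and 2 readthrough names. Of the other 10 that were not tested, EIF1AY is counted among the members and its level is not given, and the rest held from 1 count for EIF3K to 46 counts for SNHG18 over all libraries. EIF4A1, the main helicase of the cap complex in most cells, had 2327 counts in all, against 119027 for its paralog EIF4A2. EEF1D, another exchange subunit, had 148. These genes are only listed at 0 or at few counts: between 874900 and 1177055 reads per library were set aside as ambiguous between genes, and their part in these values was not tested. In the GENCODE 29 annotation, which may differ from the authors', exons of EEF1B2, EEF1G and EIF4A1 overlap other genes on the same strand. Exons of further members do so too, among them SNHG14 (with SNRPN), SNHG20 (with SEC14L1), SNHG3 (with RCC1) and EIF3L (with AL022311.1). Those of EEF2, EIF4G2, SNHG1, SNHG5, SNHG6, SNHG8, SNHG16 and SNHG29, among others, overlap snoRNA genes. Values of EIF4A1 and of these further members are uncertain for this reason. Those of EIF3C and EIF3CL, EIF5AL1 and EIF2S3B are uncertain because near-identical copies exist. Pseudogenes named after EEF1A1 held 145011 counts, against 2066250 for EEF1A1 itself.

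Per kilobase of annotated exon, EEF1A1, which delivers aminoacyl-tRNA, had the highest level of all members, a mean of 1197 CPM per kb over the 16 libraries. EEF2, which moves the ribosome along the mRNA, followed at 892 CPM per kb. The next were EIF1, a start codon sensor, at 153 CPM per kb, the eIF3 subunit EIF3I at 137 CPM per kb, and EEF1A2, the form of eEF1A typical of neurons and muscle, at 133 CPM per kb. EIF4G2, an eIF4G relative that lacks the eIF4E-binding part, was at 129 CPM per kb. Among host genes SNHG29 was highest at 80.5 CPM per kb, followed by GAS5 at 49.2 CPM per kb. EEF1A1 lies on chromosome 6 from 73515750 to 73523797 of GRCh38, EEF2 lies on chromosome 19 from 3976056 to 3985469, EIF3F lies on chromosome 11 from 7970251 to 8001862, EIF4B lies on chromosome 12 from 53006158 to 53042209, GAS5 lies on chromosome 1 from 173863900 to 173868882 and SNHG14 lies on chromosome 15 from 24978583 to 25419462.

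The start of the transcript is shown because a pyrimidine run there was the sequence feature compared below. The lower genes are of both kinds: 5 were picked because they have the run, and 3, the members with the lowest values on films among those without it, because they lack it. Each line gives 10 bases before and 20 bases from the RefSeq start (GRCh38.p14), 5′ to 3′, with the run from the start in capitals. The windows are chr6:73521013-73521042, minus strand, for EEF1A1, chr19:3985444-3985473, minus strand, for EEF2, chr11:7987327-7987356, plus strand, for EIF3F, chr12:53006446-53006475, plus strand, for EIF4B and chr16:2155339-2155368, minus strand, for SNHG19, all with the run and lower on films than in untreated plates. The lower genes without it are at chr11:62855866-62855895, minus strand, for SNHG1, chr4:118278752-118278781, plus strand, for SNHG8 and chr1:173869026-173869055, minus strand, for GAS5. Those of genes that were higher are chr15:24823598-24823627, plus strand, for SNHG14, and chr11:10807977-10808006, minus strand, for EIF4G2, again without a run at the start. The RefSeq starts of SNHG14 and GAS5 lie outside the spans that GENCODE 29 gives them.
EEF1A1: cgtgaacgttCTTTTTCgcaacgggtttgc
EEF2: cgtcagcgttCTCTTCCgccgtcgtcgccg
EIF3F: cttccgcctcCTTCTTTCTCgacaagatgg
EIF4B: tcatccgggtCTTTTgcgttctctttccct
SNHG19: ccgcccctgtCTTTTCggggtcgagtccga
SNHG1: gagattcgttctcatttttctactgctcgt
SNHG8: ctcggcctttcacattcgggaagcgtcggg
GAS5: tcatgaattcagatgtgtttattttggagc
SNHG14: gtcctcctgcgccgacctcgaatgcggtcc
EIF4G2: tgtcggaagcacttccctaacttgcgcctg

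The comparison of differentiated with untreated plates asks how the members change as the cells leave growth medium for the differentiation protocol, which changes serum, retinoic acid and BDNF together. Most members that changed fell: 36 of 80 were lower and 3 were higher at an adjusted p of at most 0.05 (edgeR quasi-likelihood test, Benjamini-Hochberg over 18081 genes). Of all genes tested 29.6% were called, 15.8% lower and 13.8% higher, and the median log2 fold change was -0.61 over the members and -0.01 over all genes. Without the second untreated library the members' median was -0.34. At an unadjusted p under 0.05 there were 48 members, where 42.3% of all genes were. By role, 10 of 13 eIF3 subunits, 7 of 10 genes listed under eIF2 and its exchange factor eIF2B, and 10 of 22 host genes were lower. That list of 10 also holds EIF2A, a separate factor, and EIF2S3B, a copy of EIF2S3.

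EIF3I, a subunit of eIF3, the scaffold of initiation on the small ribosomal subunit, had 255 and 212 CPM in differentiated plates, against 377 and 492 CPM in untreated plates. EIF3E, another eIF3 subunit, had 292 and 188 CPM in differentiated plates and 338 and 586 CPM in untreated plates. For both genes every differentiated library was below every untreated one, with log2 fold changes of -0.90 ± 0.15 (SE, edgeR adjusted p = 0.00106) for EIF3I and -0.95 ± 0.24 (SE, edgeR adjusted p = 0.00984) for EIF3E. EIF3F, an eIF3 subunit with 421 and 358 CPM in differentiated plates and 415 and 634 CPM in untreated plates, overlapped between the groups and was not called (edgeR adjusted p = 0.062). The cap-binding protein EIF4E had 44.7 and 38.4 CPM in differentiated plates and 77 and 66.2 CPM in untreated plates, a fall of 0.79 ± 0.13 on the log2 scale (SE, edgeR adjusted p = 0.000877). EIF4EBP1, the repressor that mTOR releases from eIF4E, had 59.8 and 51.4 CPM in differentiated plates and 118 and 109 CPM in untreated plates, a log2 fold change of -1.03 ± 0.20 (SE, edgeR adjusted p = 0.0022). Its relative EIF4EBP2 was not called, with 344 and 328 CPM in differentiated plates inside the 400.1 and 298 CPM of untreated plates.

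EIF2S1, the subunit of eIF2 that stress kinases phosphorylate, had 85.8 and 70.6 CPM in differentiated plates and 117 and 116 CPM in untreated plates, a log2 fold change of -0.58 ± 0.12 (SE, edgeR adjusted p = 0.00405). EIF2S2, the second subunit of the same complex, fell by 0.85 ± 0.17 (SE, edgeR adjusted p = 0.00299). EIF5B, which joins the ribosomal subunits, fell by 0.68 ± 0.16 (SE, edgeR adjusted p = 0.0066), and EIF4H, a helicase cofactor, fell by 0.75 ± 0.14 (SE, edgeR adjusted p = 0.00177), all on the log2 scale. In these 4 genes the groups did not overlap. Of the elongation factors, EEF1A1 had 9698 and 7721 CPM in differentiated plates and 11257 and 15329.7 CPM in untreated plates, a log2 fold change of -0.61 ± 0.19 (SE, edgeR adjusted p = 0.0265). EEF2 had 5309 and 4636 CPM in differentiated plates, between the 4393 and 7749 CPM of untreated plates, and was not called. EEF1A2 and EEF2K, the kinase that inactivates eEF2, were not called either, with log2 fold changes of -0.33 ± 0.18 and -0.93 ± 0.53 (SE).

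Host genes moved in both directions. SNHG12 had 7.38 and 6.04 CPM in differentiated plates and 12.2 and 23.7 CPM in untreated plates, a log2 fold change of -1.42 ± 0.28 (SE, edgeR adjusted p = 0.0028). SNHG3 and SNHG15 fell by 1.22 ± 0.24 and 1.20 ± 0.26 on the log2 scale (SE, edgeR adjusted p = 0.00299 and 0.00463). SNHG14, the long transcript over the imprinted Prader-Willi region, had 87.9 and 92.6 CPM in differentiated plates and 59.8 and 13.4 CPM in untreated plates, a log2 fold change of 1.30 ± 0.41 (SE, edgeR adjusted p = 0.0297). Its direction held in all 4 libraries, but its size turned on the second untreated library: without it the log2 fold change was 0.60, and without the first untreated library 2.74. SNHG20 had 15.2 and 15.3 CPM in differentiated plates and 10.3 and 8.89 CPM in untreated plates, higher by 0.67 ± 0.18 (SE, edgeR adjusted p = 0.0139). The third member that was higher was EIF4E3, a paralog of the cap-binding protein. It had 19.8 and 20 CPM in differentiated plates and 14.6 and 11.1 CPM in untreated plates. Its log2 fold change was 0.63 ± 0.21 (SE, edgeR adjusted p = 0.0359). It lost its call without the second untreated library and without either differentiated plate library. The lists of lost calls below leave EIF4E3 out. GAS5 was not called, with 274 and 179 CPM in differentiated plates overlapping the 221 and 599 CPM of untreated plates.

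These calls rest on few libraries. Fewer members were called without the second untreated library, or without the second differentiated plate library, than with all. The members' median log2 fold change was -0.34 without the former and -0.44 without the latter, against -0.61 with all libraries. The shares of all genes called in these fits are not given here. Among the genes named, EEF1A1, EIF3E, SNHG1, SNHG6, SNHG8, SNHG29, EIF4A1 and EEF1AKMT4 lost their call without the second untreated library, where the log2 fold change was -0.37 for EEF1A1, -0.49 for EIF3E, -0.70 for SNHG1, against -1.30 with all libraries, -0.10 for SNHG8, against -1.03, -0.22 for SNHG6, against -0.81, and -0.21 for EIF4A1, against -1.47. Without the second differentiated plate library 16 named genes lost their call: EEF1A1, EEF1AKMT4, EIF2S1, EIF3E, EIF3M, EIF4A1, EIF5B, SNHG1, SNHG3, SNHG6, SNHG8, SNHG14, SNHG15, SNHG16, SNHG20 and SNHG29. Without the first one EEF1AKMT4, EIF4A1 and SNHG14 did. SNHG12, SNHG15, EIF3M and SNHG16 stayed called without the second untreated library, at -0.86, -0.72, -0.56 and -0.51, while SNHG29 was at -0.22, against -0.61 with all libraries. The helicase paralog EIF4A2 was not called with all libraries, at -0.04 ± 0.24 (SE), and turned to 0.59 without the second untreated library (edgeR adjusted p = 0.00833). A fit of the 4 plate libraries alone, which has 2 residual degrees of freedom, called no member, at 320 calls over all genes.

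**Figure D1:**
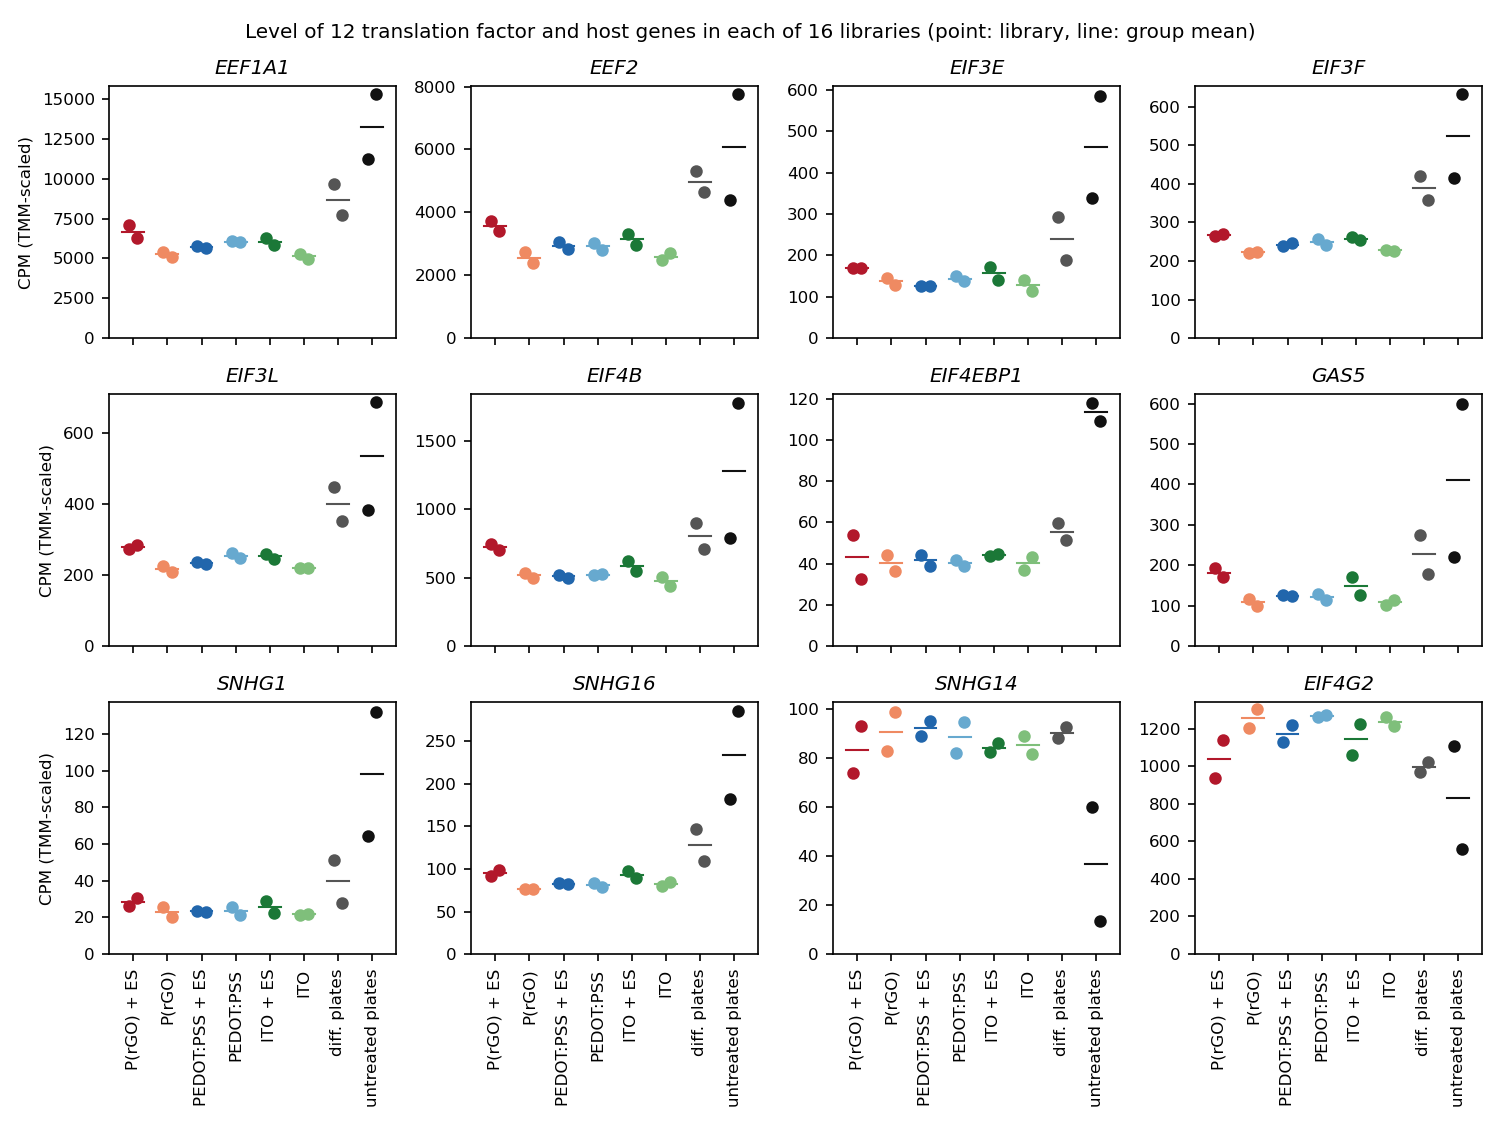
Level of 12 members in each of the 16 libraries, in CPM on TMM-scaled library sizes, by group, with stimulated (ES) left of unstimulated films and untreated plates at the right. Points are libraries and lines are group means; the films sit below both plate groups for EEF1A1, EIF3F and SNHG16, and above untreated plates for SNHG14.

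Cells on unstimulated films, compared with untreated plates, carry both the differentiation and the change of surface. Here 53 of 80 members were lower and 4 were higher, where 24.3% of all genes tested were lower and 20.4% higher, 44.8% in all (edgeR adjusted p at most 0.05). The median log2 fold change was -0.79 over the members and -0.01 over all genes. All 13 tested eIF3 subunits fell, as did 8 of 10 genes on the eIF2 and eIF2B list. So did 4 of 5 elongation factors, 4 of 6 of their modifying enzymes and 15 of 22 host genes.

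EEF1A1 ranged from 4995 to 6084 CPM with a median of 5364 CPM in the 6 unstimulated film libraries, against 11257 and 15329.7 CPM in untreated plates, a log2 fold change of -1.28 ± 0.14 (SE, edgeR adjusted p = 1.45e-05). EEF2 ranged from 2382 to 3024 CPM with a median of 2712 CPM on films, against 4393 and 7749 CPM in untreated plates, a log2 fold change of -1.18 ± 0.17 (SE, edgeR adjusted p = 0.000101). Each film library lay below each untreated library for both genes. Without the second untreated library EEF2 was at -0.70 and still called. EEF1A2 fell less, by 0.49 ± 0.14 on the log2 scale (SE, edgeR adjusted p = 0.013), and lost its call without the second untreated library, at -0.16. EEF1D, the exchange subunit, with 0.174 to 0.533 CPM with a median of 0.335 CPM on films and 0.532 and 1.51 CPM in untreated plates, is at the level of a few counts, and its log2 fold change of -1.58 ± 0.54 (SE, edgeR adjusted p = 0.0272) shrank to -0.65 without that library. EEF2K, at 0.291 to 0.801 CPM with a median of 0.673 CPM on films and 1.12 and 1.69 CPM in untreated plates, was lower by 1.20 ± 0.42 on the log2 scale (SE, edgeR adjusted p = 0.0315) and lost its call in the same way.

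Of eIF3, EIF3E ranged from 114 to 149 CPM with a median of 139.5 CPM on films, against 338 and 586 CPM in untreated plates, a log2 fold change of -1.76 ± 0.18 (SE, edgeR adjusted p = 6.51e-06). EIF3M ranged from 86.6 to 107 CPM with a median of 97.5 CPM on films, against 207 and 334 CPM in untreated plates, a log2 fold change of -1.46 ± 0.16 (SE, edgeR adjusted p = 1.01e-05). EIF3H, EIF3L, EIF3F and EIF3I fell by 1.44 ± 0.16, 1.22 ± 0.16, 1.17 ± 0.13 and 1.08 ± 0.12 on the log2 scale (SE). In all 13 subunits tested every film library was below both untreated ones. The share of all genes with this layout was not counted, so it is not read as a result about the subunits. Without the second untreated library EIF3L was at -0.73, and EIF2S3, described next, at -0.83, both still called. EIF2S3, the GTP-binding subunit of eIF2, ranged from 130.1 to 147 CPM with a median of 145 CPM on films, against 255 and 443 CPM in untreated plates, a log2 fold change of -1.29 ± 0.16 (SE, edgeR adjusted p = 3.16e-05). EIF6, which keeps the large ribosomal subunit from joining too early, fell by 0.47 ± 0.11 on the log2 scale (SE, edgeR adjusted p = 0.00279).

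In the cap-binding group the members parted. EIF4EBP1 ranged from 36.2 to 44.1 CPM with a median of 40.2 CPM on films, against 118 and 109 CPM in untreated plates, a log2 fold change of -1.50 ± 0.15 (SE, edgeR adjusted p = 6.07e-06). EIF4B, which stimulates the helicase, ranged from 437 to 537 CPM with a median of 515 CPM on films, against 790.3 and 1775 CPM in untreated plates. Its log2 fold change was -1.35 ± 0.20 (SE, edgeR adjusted p = 0.00013) and -0.64 without the second untreated library, where its level was highest. EIF4E fell by 0.38 ± 0.10 on the log2 scale (SE, edgeR adjusted p = 0.0074). EIF4G2 ranged from 1206 to 1305 CPM with a median of 1261 CPM on films, against 1108 and 557 CPM in untreated plates, higher by 0.59 ± 0.20 (SE, edgeR adjusted p = 0.026), with no call and 0.19 once the second untreated library was left out, and 1.17 without the first. The other members that were higher were SNHG14, EIF4E3 at 0.61 ± 0.18 and the scaffold EIF4G3 at 0.37 ± 0.09 (log2, SE). Without the second untreated library EIF4E3 and EIF4G3 were not both called, and their values there are not given. EIF4A2 and EIF4EBP2 were not called, at -0.38 ± 0.19 and -0.05 ± 0.12 (log2, SE). EIF4A1, a gene with few counts, was at -1.86 ± 0.36 (log2, SE). It was at -0.60 without the second untreated library, which ended its call.

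The 3 largest falls were in host genes. SNHG1 ranged from 20.1 to 25.5 CPM with a median of 21.8 CPM on films, against 64.6 and 132 CPM in untreated plates, a log2 fold change of -2.12 ± 0.23 (SE, edgeR adjusted p = 9.86e-06). SNHG8 ranged from 15.6 to 20.9 CPM with a median of 16.9 CPM on films, against 36.2 and 102 CPM in untreated plates, a log2 fold change of -1.99 ± 0.24 (SE, edgeR adjusted p = 2.73e-05). GAS5, a transcript first found in growth-arrested cells, ranged from 100.1 to 129 CPM with a median of 113 CPM on films, against 221 and 599 CPM in untreated plates, a log2 fold change of -1.87 ± 0.25 (SE, edgeR adjusted p = 4.9e-05). All film libraries lay below all untreated ones in these 3 genes, and without the second untreated library the log2 fold changes were -1.51 for SNHG1, -1.05 for SNHG8 and -0.97 for GAS5, each still called. SNHG3, SNHG19, SNHG16 and SNHG6 fell by 1.81 ± 0.18, 1.75 ± 0.19, 1.55 ± 0.14 and 1.36 ± 0.18 on the log2 scale (SE), and SNHG6 by 0.76 without that library. SNHG14 went the other way, with 81.6 to 98.6 CPM with a median of 86 CPM on films and 59.8 and 13.4 CPM in untreated plates, a log2 fold change of 1.27 ± 0.36 (SE, edgeR adjusted p = 0.0109), or 0.57 without it and 2.71 without the first untreated library. Over all members the median log2 fold change was -0.62 without the second untreated library.

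**Figure D2:**
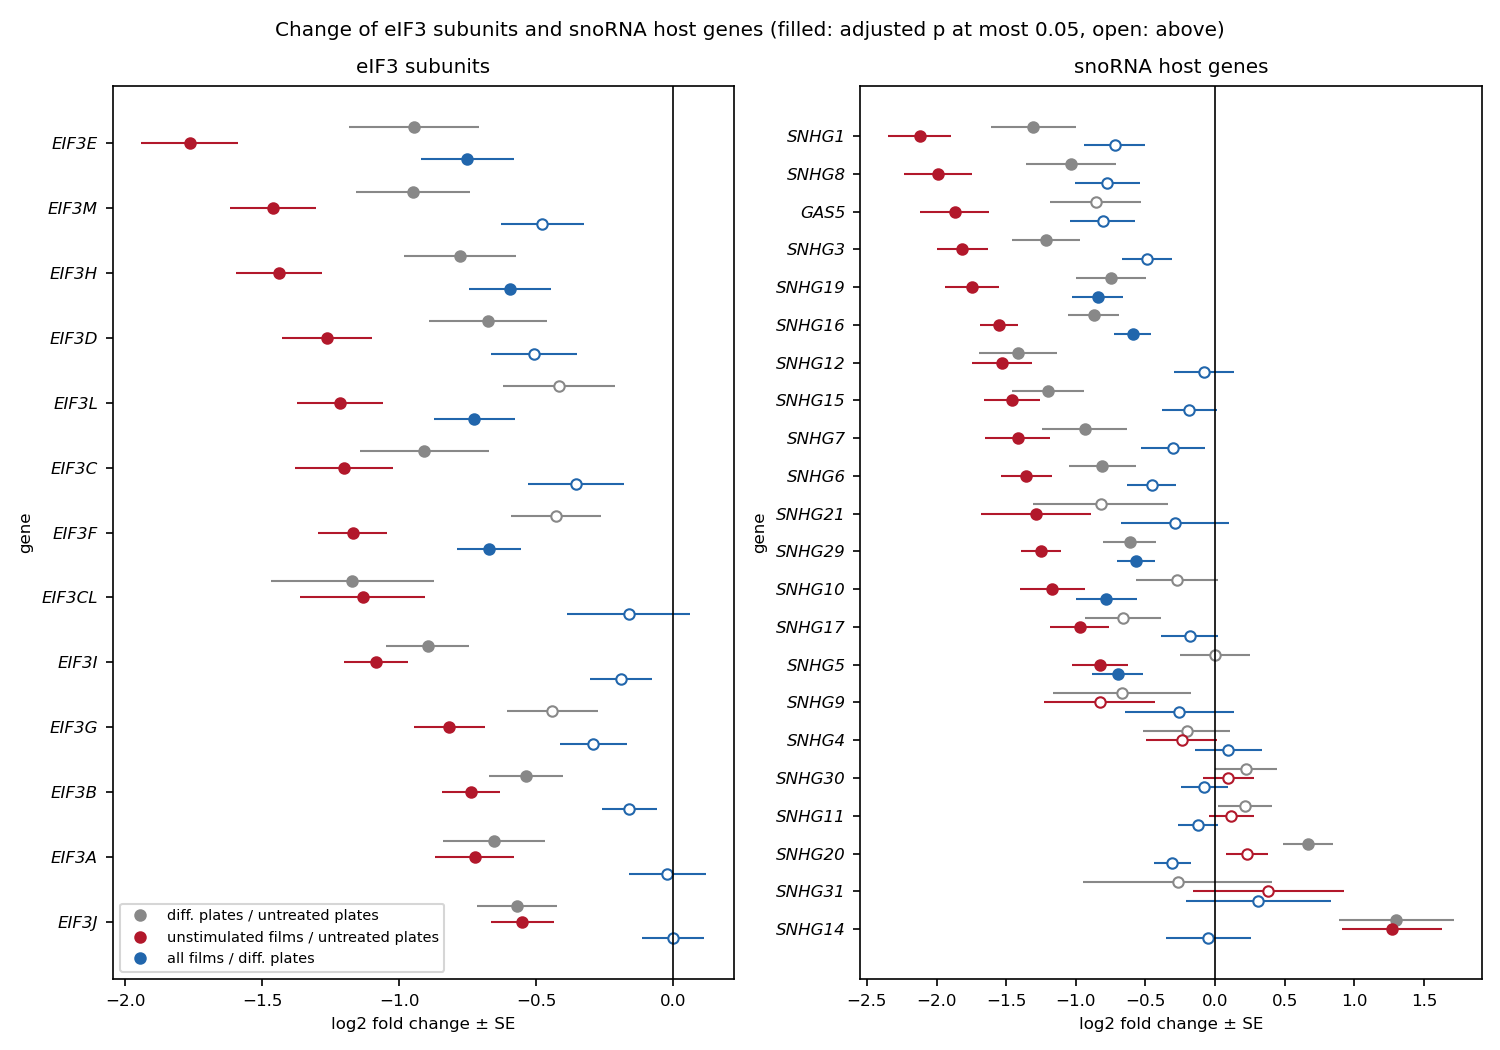
Log2 fold change with its standard error (bars) for the 13 tested eIF3 subunits and 22 tested host genes, in differentiated against untreated plates (grey), unstimulated films against untreated plates (red) and all films against differentiated plates (blue). Filled points have an edgeR adjusted p of at most 0.05; all eIF3 subunits lie left of 0 for films against untreated plates, from -0.55 for EIF3J to -1.76 for EIF3E.

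Films against differentiated plates compares cells under 1 differentiation protocol on different surfaces, although the labels name a coat only for the films, so surface and coat cannot be told apart. The mean over all films also holds 3 stimulated groups of 6, whereas the plates were not stimulated, and the unstimulated films are compared one by one further on. Over the 12 film libraries 11 members were lower and none was higher than in differentiated plates, where 3.73% of all genes tested were lower, 4.05% higher and 7.78% called (edgeR adjusted p at most 0.05). They were 4 eIF3 subunits (EIF3E, EIF3F, EIF3H, EIF3L), both major elongation factors (EEF1A1, EEF2) and 5 host genes (SNHG5, SNHG10, SNHG16, SNHG19, SNHG29). The median log2 fold change was -0.16 over the members and -0.02 over all genes, and the members' median was 0.003 without the first differentiated plate library and -0.29 without the second. No gene on the eIF2 and eIF2B list and none of the cap-binding group was called.

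EEF2 ranged from 2382 to 3737 CPM with a median of 2887 CPM over the 12 film libraries, against 5309 and 4636 CPM in differentiated plates, a log2 fold change of -0.76 ± 0.16 (SE, edgeR adjusted p = 0.0099). EEF1A1 ranged from 4995 to 7075 CPM with a median of 5840.4 CPM on films, against 9698 and 7721 CPM in differentiated plates, a log2 fold change of -0.58 ± 0.14 (SE, edgeR adjusted p = 0.0185). For neither gene did a film library reach the lower plate library. EIF3F ranged from 222 to 271 CPM with a median of 244 CPM on films, against 421 and 358 CPM in differentiated plates, a log2 fold change of -0.67 ± 0.12 (SE, edgeR adjusted p = 0.00386). EIF3L ranged from 208 to 285 CPM with a median of 241 CPM on films, against 447 and 352 CPM in differentiated plates, a log2 fold change of -0.73 ± 0.15 (SE, edgeR adjusted p = 0.00869). These 2 subunits had not been called in differentiated against untreated plates. EIF3E and EIF3H were at -0.75 ± 0.17 and -0.60 ± 0.15 (log2, SE), and their groups did not overlap either.

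SNHG19 ranged from 4.97 to 10.3 CPM with a median of 7.38 CPM on films, against 16.4 and 10.4 CPM in differentiated plates, a log2 fold change of -0.84 ± 0.18 (SE, edgeR adjusted p = 0.0132). SNHG16 ranged from 76.2 to 98.8 CPM with a median of 83.2 CPM on films, against 147 and 109 CPM in differentiated plates, a log2 fold change of -0.59 ± 0.13 (SE, edgeR adjusted p = 0.0144). SNHG5 ranged from 5.38 to 8.93 CPM with a median of 6.58 CPM on films, against 12.7 and 9.64 CPM in differentiated plates, and its log2 fold change was -0.70 ± 0.18 (SE, edgeR adjusted p = 0.0322). The films lay below both plate libraries in these 3 host genes. SNHG29 was at -0.57 ± 0.14 without overlap, and SNHG10 at -0.78 ± 0.22 with the highest film library above the lower plate library (log2, SE). GAS5, with 100.1 to 192 CPM with a median of 124 CPM on films and 274 and 179 CPM in differentiated plates, missed the threshold (log2 fold change -0.81 ± 0.23, SE, edgeR adjusted p = 0.0502). EIF4E ran the other way without a call: 43.8 to 57.9 CPM with a median of 53.1 CPM on films, against 44.7 and 38.4 CPM in differentiated plates (log2 fold change 0.33 ± 0.10, SE, edgeR adjusted p = 0.0583). It was called higher with RLE scaling, with scaling that left out ribosomal protein, mitochondrial and member genes, and with DESeq2.

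By film, unstimulated P(rGO) had 8 members lower than differentiated plates, EIF3F, EIF3L, EEF1A1, EEF2, SNHG5, SNHG16, SNHG19 and SNHG29, where 4.63% of all genes tested were called, 1.64% lower and 2.99% higher. Unstimulated ITO had 7 lower, EIF3E, EIF3F, EIF3H, EIF3L, EEF1A1, EEF2 and SNHG19, where 4.23% of all genes were called, 1.73% lower and 2.5% higher. On PEDOT:PSS edgeR called no member, with 19 at an unadjusted p under 0.05, where 13.8% of all genes were. Of all genes edgeR called 1.48% on this film, 0.454% lower and 1.02% higher. DESeq2 called 4 members there, and its share over all genes is not given here. EEF2 had 2728 and 2382 CPM on P(rGO), 3024 and 2807 CPM on PEDOT:PSS, 2488 and 2695 CPM on ITO and 5309 and 4636 CPM in differentiated plates, with log2 fold changes of -0.96 ± 0.22, -0.77 ± 0.22 and -0.94 ± 0.22 (SE) for the 3 films in that order. EIF3F had 222 and 224 CPM on P(rGO), 256 and 242 CPM on PEDOT:PSS, 229.7 and 226 CPM on ITO and 421 and 358 CPM in differentiated plates, with log2 fold changes of -0.81 ± 0.17, -0.64 ± 0.16 and -0.77 ± 0.16 (SE). All 6 film libraries were below both plate libraries for the pair, and the films share these plate libraries. The test of a difference among the 3 unstimulated films called no member and had 0 at an unadjusted p under 0.05, where 1.32% of all genes were (edgeR), and DESeq2 called none.

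All 11 calls over the films, and those of P(rGO) and ITO alone, rest on the first differentiated plate library: without it none of them stood. The share of all genes called without that library is not given here. Each of these 11 genes kept its direction without it, and 8 other named genes, none of them called, turned to a value above 0. Without the first plate library the log2 fold change over all films was -0.66 for EEF2, -0.55 for EIF3F, -0.41 for EEF1A1 and -0.47 for SNHG19. It was -0.40 for EIF3E, -0.35 for EIF3H, -0.32 for SNHG10, -0.36 for SNHG16 and -0.34 for SNHG29. Film libraries mattered for 2 of the 11: SNHG10 lost its call when any of 11 of the 12 was left out singly, and SNHG5 with 7 of the 12. Leaving out either unstimulated P(rGO) library, or either unstimulated ITO library, ended every member call of that film. Each such fit has 1 library in an arm, which is assumed to vary as the other groups do.

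**Figure D3:**
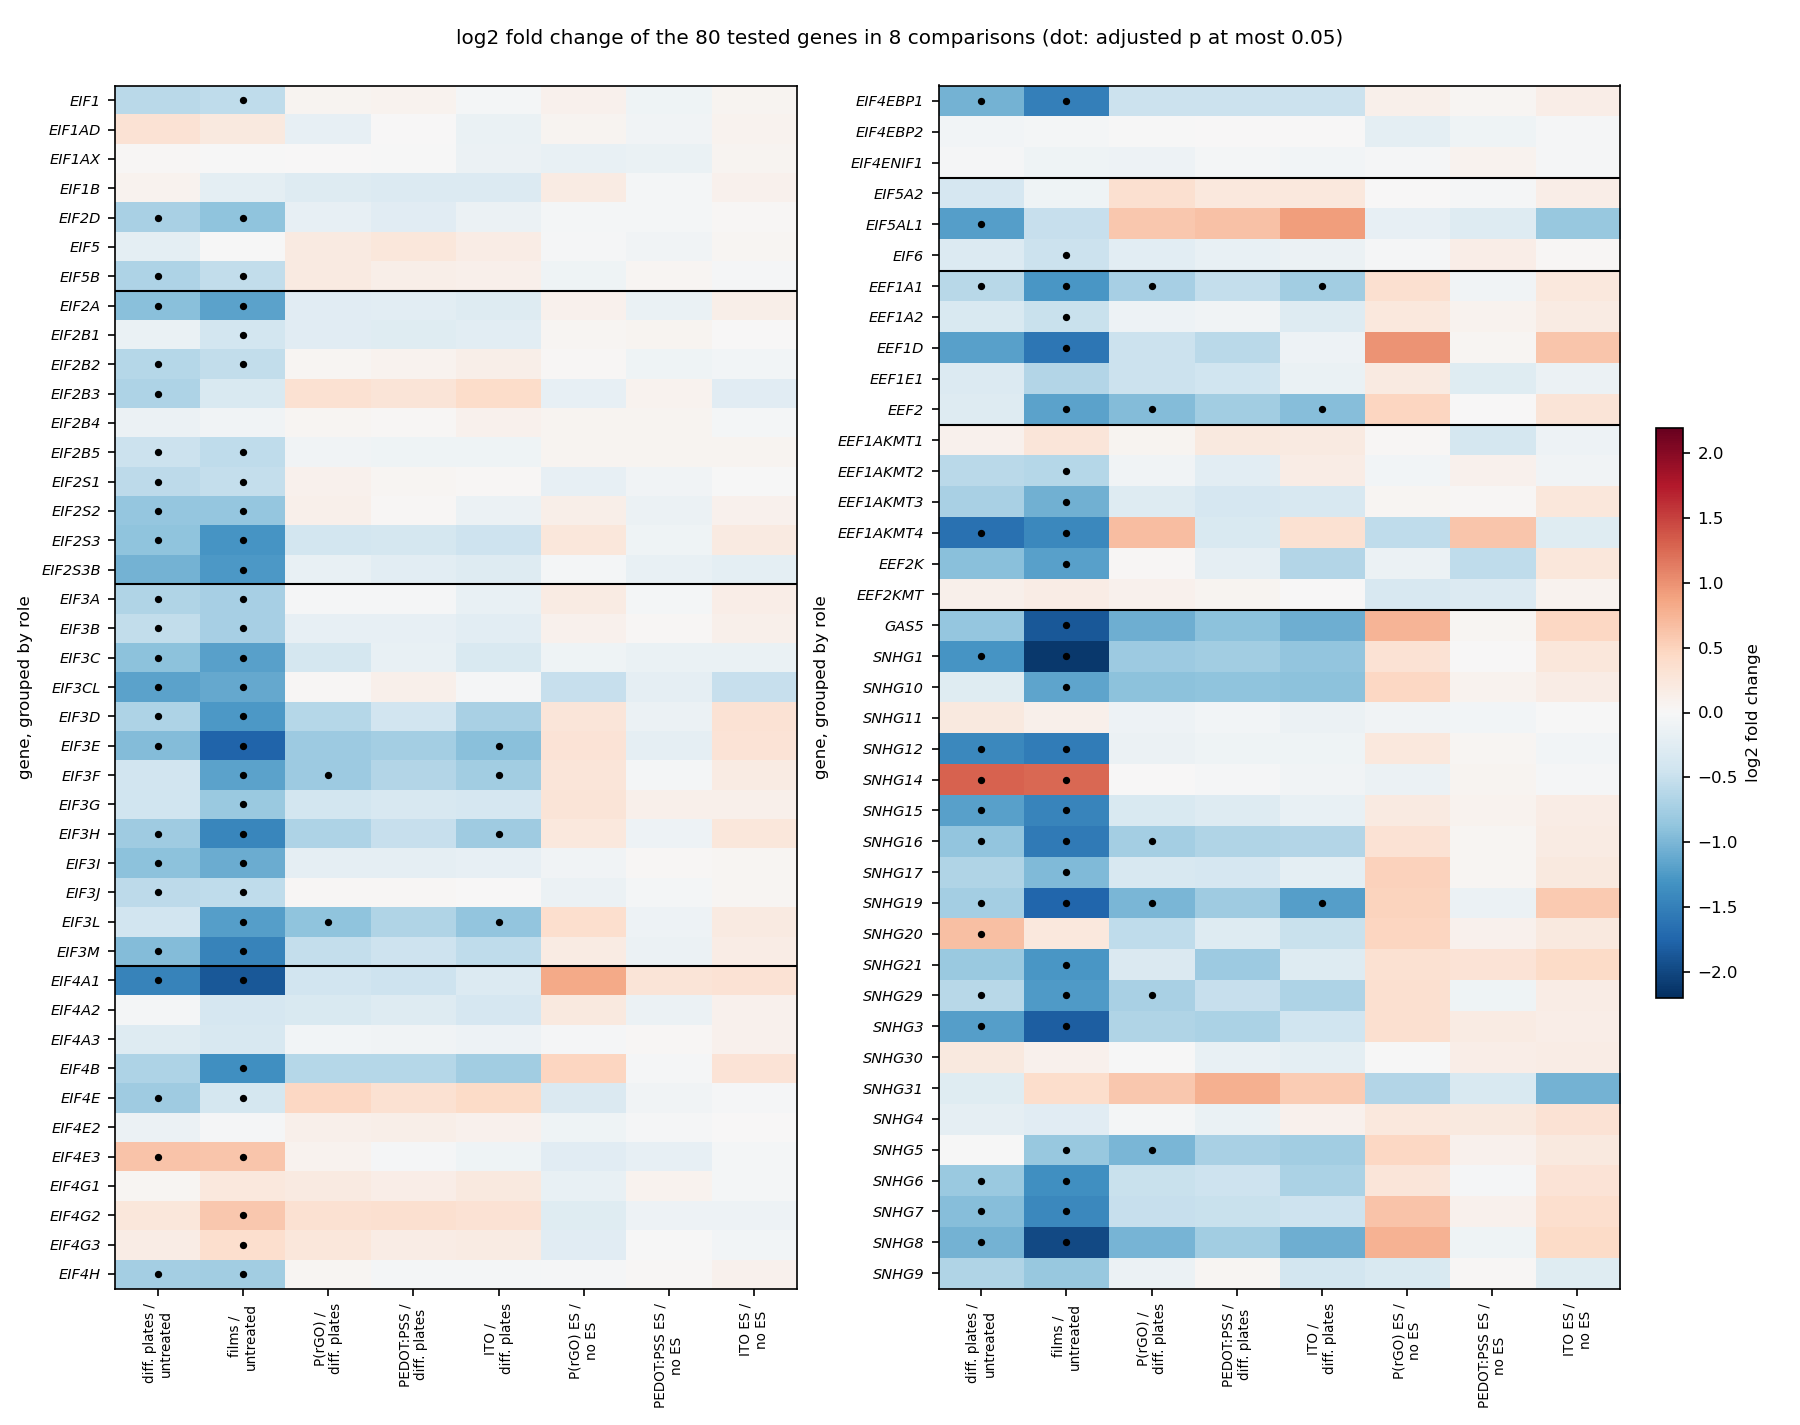
Log2 fold change of the 80 tested members in 8 comparisons, each written as the group over the one it is set against, with genes grouped by role (lines) and calls at an edgeR adjusted p of at most 0.05 marked by dots. Blue is lower and red is higher in the upper group; dots fill most of the films / untreated column, with 57 calls, and none stands in the ES columns.

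Stimulated against unstimulated film asks what the electrical stimulation adds on each surface. No member was called for any of the 3 films, or in the mean effect over the 3 films, and 0% of all genes tested were (edgeR quasi-likelihood test). At an unadjusted p under 0.05 there were 6 of 80 members on P(rGO), where 5.45% of all genes were under it, and 0 on PEDOT:PSS, where 0.697% were. There were 2 members on ITO, where 1.62% of all genes were under it, and 3 in the mean effect, where 5.65% were. DESeq2 called no member in any of these comparisons. The median log2 fold change over the members was 0.08 for P(rGO), -0.02 for PEDOT:PSS, 0.10 for ITO and 0.05 in the mean. Over the 79 tested ribosomal protein genes it was 0.24 for P(rGO), 0.18 for ITO and -0.09 for PEDOT:PSS, with none called.

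On P(rGO) the smallest p-values were those of SNHG20, EIF4E and SNHG8. SNHG20 had 13.3 and 15.6 CPM on stimulated P(rGO), against 9.68 and 11.1 CPM on unstimulated P(rGO), a log2 difference of 0.48 ± 0.18 (SE, edgeR adjusted p = 0.846). EIF4E had 43.8 and 47.6 CPM on stimulated P(rGO), against 56.5 and 57.9 CPM on unstimulated P(rGO), a log2 difference of -0.32 ± 0.13 (SE, edgeR adjusted p = 0.857). SNHG8 had 27.1 and 28.9 CPM on stimulated P(rGO), against 15.6 and 17.5 CPM on unstimulated P(rGO), a log2 difference of 0.76 ± 0.33 (SE, edgeR adjusted p = 0.877). In each of the 3 the libraries of the conditions did not overlap, and none passed the test.

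GAS5 had 192 and 172 CPM on stimulated P(rGO), against 116 and 100.1 CPM on unstimulated P(rGO). On PEDOT:PSS it had 126 and 124 CPM with stimulation and 129 and 114 CPM without, and on ITO 170.1 and 125 CPM with and 102 and 113 CPM without. The log2 differences were 0.75 ± 0.33 on P(rGO), 0.46 ± 0.33 on ITO and 0.04 ± 0.33 on PEDOT:PSS (SE), and the mean over the films was 0.42 ± 0.19 (SE, edgeR adjusted p = 0.856). Stimulated libraries were all higher on P(rGO) and on ITO, and the ranges overlapped on PEDOT:PSS. A fit without the low-count filter called GAS5 on P(rGO), at 0.74 (edgeR adjusted p = 0.00459), and in the mean effect, at 0.42 (edgeR adjusted p = 0.00744).

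For the elongation factors, EEF2 had 3737 and 3391 CPM on stimulated and 2728 and 2382 CPM on unstimulated P(rGO), a log2 difference of 0.48 ± 0.22 (SE, edgeR adjusted p = 0.902). It had 3039 and 2821 CPM on stimulated and 3024 and 2807 CPM on unstimulated PEDOT:PSS, and 3320.4 and 2954 CPM on stimulated and 2488 and 2695 CPM on unstimulated ITO. EEF1A1 was at 0.35 ± 0.19 on P(rGO), 0.23 ± 0.19 on ITO and -0.08 ± 0.19 on PEDOT:PSS (log2, SE). Stimulated EEF1A1 libraries were all higher than unstimulated ones on P(rGO) and ITO and all lower on PEDOT:PSS. Of the 45 members named under any comparison, 8 had this layout. Its share over all genes was not counted, so the 8 are not read as a result about the members. The edgeR test of a difference in the stimulation effect between films called no member, and DESeq2 called none. In the edgeR test 0 members were at an unadjusted p under 0.05, where 0.736% of all genes were. On ITO the smallest p-values were those of EIF5AL1, a copy of EIF5A with few counts, at -0.83 ± 0.36, SNHG19 at 0.58 ± 0.27 and EIF3CL, a copy of EIF3C, at -0.50 ± 0.30 (log2, SE), with edgeR adjusted p = 1 for each. On PEDOT:PSS the smallest was EIF6, at 0.15 ± 0.14 (log2, SE, edgeR adjusted p = 1).

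**Figure D4:**
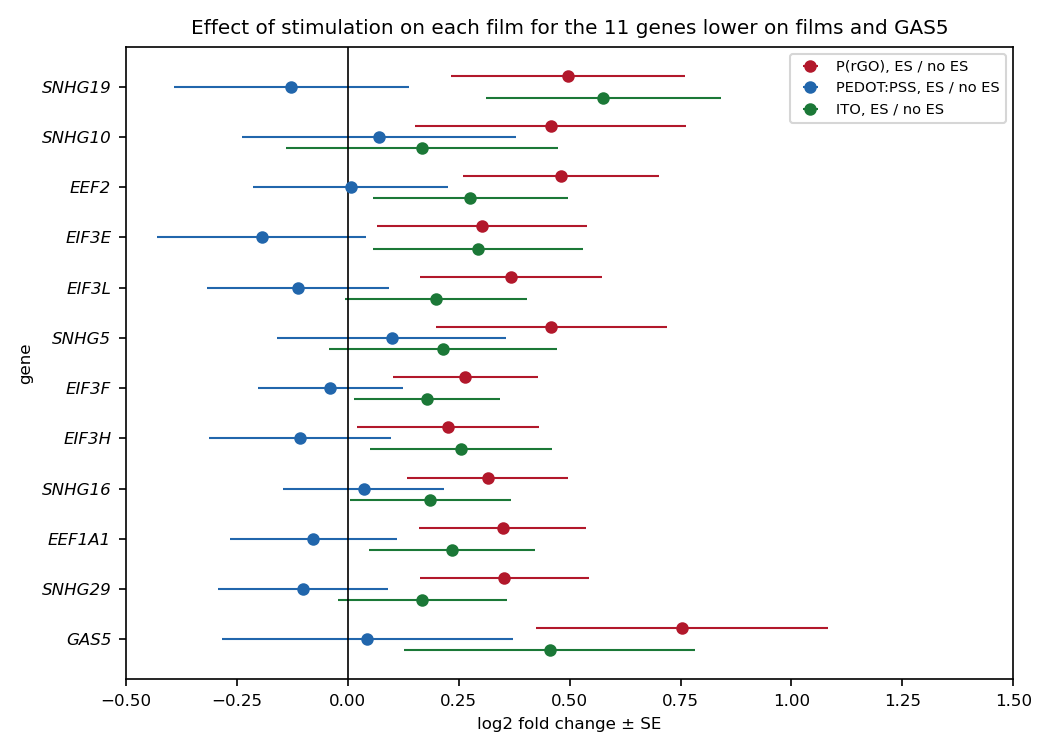
Log2 fold change of stimulated over unstimulated film, with its standard error, on P(rGO) (red), PEDOT:PSS (blue) and ITO (green), for the 11 members lower on films than in differentiated plates and for GAS5. Points for PEDOT:PSS lie between -0.19 for EIF3E and 0.10 for SNHG5, and none of the differences was called.

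Of the 79 members with a RefSeq start, 19 (24.1%) have a C at the start followed by at least 4 further pyrimidines (C or T) on the transcribed strand, against 816 of 11585 tested symbols (7.04%) and 1429 of 35116 starts in the table (4.07%). The other 17 members have no entry in the table. A run in these letters is a description of the annotated start, and it does not show that a transcript begins there in these cells. Of the members with the run 15 were tested, and of those without it 49.

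On unstimulated films against untreated plates 13 of 15 members with the run fell and none rose, with a median log2 fold change of -1.26. Of the 49 without it 27 fell and 4 rose, with a median of -0.53. Among the 11585 tested genes with a RefSeq start 39.5% with the run and 25.4% without it were lower there. Members and ribosomal protein genes were not taken out of these genes, and their part in the shares was not counted. Over all films against differentiated plates 5 of 15 with the run were lower, with a median of -0.48, and 3 of 49 without it, with a median of -0.08. Among the tested genes with a RefSeq start the shares that were lower in that comparison were 9.93% with the run and 3.69% without it. In differentiated against untreated plates the members' medians were closer, -0.68 with the run and -0.54 without it. Of the tested genes with a RefSeq start 27.2% with the run and 17.1% without it were lower. The starts of EEF1A1, EEF2, EIF3F, EIF4B and SNHG19 printed above begin with such a run. SNHG1, SNHG8 and GAS5, the members with the lowest values, have none at the annotated start. Only a run from that exact base was counted, so pyrimidines beside it, as in the windows of SNHG1 and SNHG8, do not enter. Whether transcripts of these genes begin with pyrimidines in these cells was not tested.

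**Figure D5:**
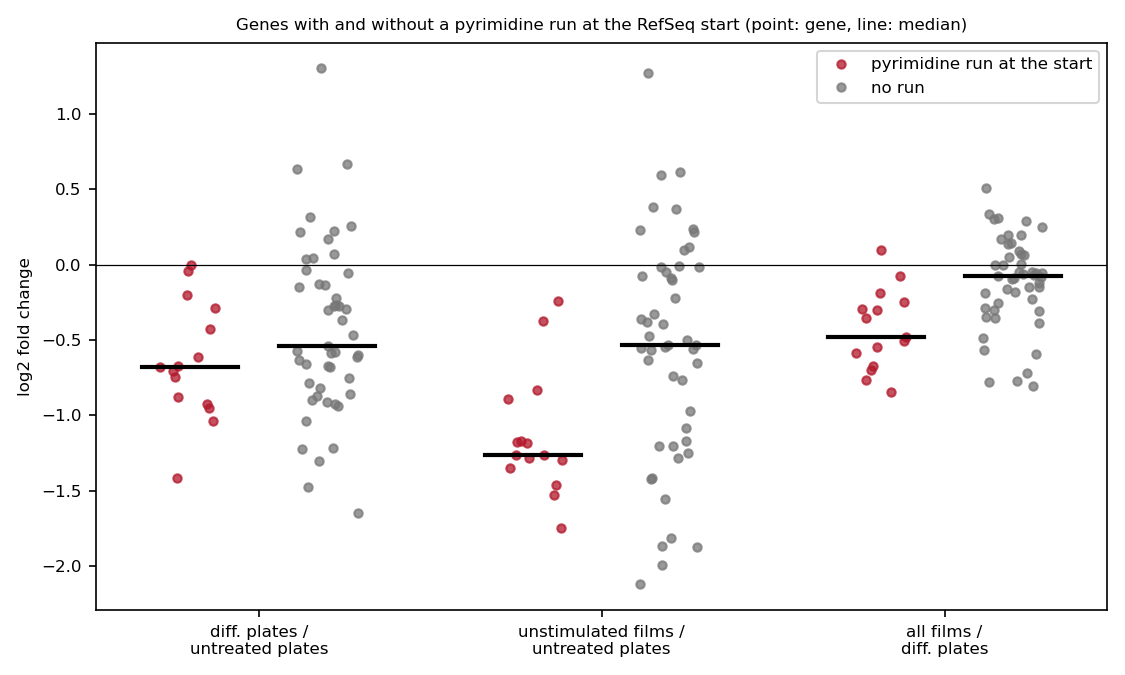
Log2 fold change of each tested member with (red) and without (grey) a pyrimidine run at its RefSeq start, in 3 comparisons; black lines are medians. On films against untreated plates every gene with the run lies below 0, with a median of -1.26 against -0.53 without it.

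Other genes of the translation machinery were read from lists made by function, or by gene name for cytosolic ribosomal proteins. The latter list holds paralogs such as RPL7L1 and RPL22L1 and was not checked for the TOP motif. Of its 79 tested genes 72 fell in differentiated against untreated plates and 76 on unstimulated films against untreated plates. Their median log2 fold changes were -0.82 and -1.39, and none rose, where 15.8% and 24.3% of all genes tested were lower. Leaving out the second untreated library gave 34 and 70, and leaving out the second differentiated plate library gave 16 in the first of these comparisons. Over all films against differentiated plates 46 were lower, with a median of -0.54, where 3.73% of all genes were, and 0 were without the first differentiated plate library (edgeR). Of 8 poly(A)-binding proteins and regulators, 4 fell on films against untreated plates and 2 over all films against differentiated plates. PABPC1, the main cytoplasmic poly(A)-binding protein, was at -1.39 ± 0.14 on films against untreated plates and at -0.58 ± 0.14 over all films against differentiated plates (log2, SE, edgeR adjusted p = 7.85e-06 and 0.0196). PDCD4, an inhibitor of the eIF4A helicase, was at -0.82 ± 0.12 and -0.40 ± 0.11 in the same comparisons (log2, SE). Over all films neither was called without the first differentiated plate library, at -0.39 for PABPC1 and -0.17 for PDCD4.

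The counts that follow are for unstimulated films against untreated plates, where 24.3% of all genes tested were lower and 20.4% higher, and in lists of this size counts near those shares say nothing about the list. Of 8 termination and recycling genes 5 fell on films against untreated plates, ABCE1, which splits the ribosome, at -0.95 ± 0.11 and the release factor ETF1 at -0.49 ± 0.10 among them (log2, SE), ETF1 being at -0.31 without the first untreated library. None was called over all films against differentiated plates. Of 11 tested snoRNA-protein complex genes 10 fell on films against untreated plates, and dyskerin (DKC1), the pseudouridine synthase, was at -0.97 ± 0.12 (log2, SE, edgeR adjusted p = 2.53e-05). Of 9 genes that make hypusine on eIF5A or diphthamide on eEF2, 7 fell and 1 rose, DPH5 being at -0.96 ± 0.15 and DPH3 at 0.87 ± 0.17 (log2, SE), and 4 fell without the second untreated library, with DPH3 at 0.55. Genes of nonsense-mediated decay, which degrades many host gene transcripts, included 3 that rose and 1 that fell of 10, SMG6 at 0.92 ± 0.12 and UPF1 at -0.30 ± 0.10 (log2, SE). UPF1 was not called without the second untreated library, at -0.23. Of 12 mTOR and MNK signalling genes 2 fell and 2 rose, with the rise seen in TSC1, a brake on mTOR, at 0.73 ± 0.11 and RPTOR, an mTOR partner, at 0.45 ± 0.15 (log2, SE). RPTOR was not called without the second untreated library, at 0.17, and was at 0.80 without the first, where 5 genes of the list rose. Of 7 eIF2 kinases and phosphatases 1 rose and 3 fell, and ATF4, the factor translated when eIF2 is phosphorylated, was at -0.88 ± 0.19 (log2, SE, edgeR adjusted p = 0.00234). Its level was 129 to 169 CPM with a median of 137 CPM on unstimulated films and 190.0 and 331 CPM in untreated plates, and without the second untreated library it was not called, at -0.41, and 1 gene of that list fell.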

How the data were processed

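Per the labels' protocols, poly(A) RNA of 16 samples was made into strand-marking libraries and sequenced. The submitters' processing notes name STAR, HTSeq, GRCh38.p13 and hg38. Tool versions, annotation release and the strand setting of counting are not given in the sources used here. The authors deposited 1 table of raw counts per gene, with 69222 gene rows and 5 summary rows, which were left out of library sizes.

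Of the Ensembl IDs, 62639 matched a symbol. The members and all gene lists were chosen with earlier results of these data known. edgeR 4.0.16 (R 4.3.3) fitted 1 mean per group to all 16 libraries, after its filter on low counts (18081 genes) and TMM scaling, with 8 residual degrees of freedom. Calls are quasi-likelihood tests at 0.05 after Benjamini-Hochberg adjustment over all genes, and the test was checked on simulated data. With 2 libraries in each group, the simulated recovery of genes with a log2 change of 1 was 58% for differentiated against untreated plates and 92% for all films against differentiated plates. At a log2 change of 0.5 it was 6% and 18%. The simulation gave each gene the same spread in all groups and changed few genes, unlike these data, so recovery here may differ. Genes named in each comparison were a list of 24 plus up to 8 called members of each class (EIF, EEF and host genes). EIF4E3 and EIF4G3 were named after their values were seen. Alternatives were RLE scaling, scaling without ribosomal protein, mitochondrial and member genes, no filter, DESeq2 1.42.0, a replicate block, a fit restricted to the groups under comparison, and each library left out. Levels per kilobase use GENCODE 29 exons, and start sequences are from RefSeq (GRCh38.p14). Leaving out plate libraries was extended to the other gene lists after the data were seen.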

Additional observations from a re-analysis of the deposited data

Results flagged for a closer look

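Rows outside the members held reads for genes listed at or near 0. Pseudogenes named after EEF1B2 held 3096 counts over the 16 libraries, those named after EEF1G held 655, those named after EIF5A held 1127 and those named after EIF3K held 11. They were picked out because EEF1B2, EEF1G and EIF5A themselves had 0 counts and EIF3K had 1. Whether these reads came from the parent genes was not tested.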

How the results depend on the processing

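The fit of only the groups compared called 0 members in differentiated against untreated plates, 4 on ITO against differentiated plates and 23 on all films against differentiated plates. Without the low-count filter, members called against differentiated plates were 15 on P(rGO), 10 on PEDOT:PSS, 16 on ITO and 19 on all films, and 1 member, GAS5, was called for stimulation on P(rGO) and 1 for mean stimulation. DESeq2 called 14 on P(rGO), 13 on ITO and 4 on PEDOT:PSS. The member counts in this section are given without the share of all genes called in each setting. They are not read as results about the members. The cause was not tested. With 1 library left out, members called ranged from 6 to 57 in differentiated against untreated plates, from 49 to 62 in films against untreated plates, from 0 to 12 on P(rGO), from 0 to 11 on ITO and from 0 to 14 on all films against differentiated plates. They were 0 to 0 on PEDOT:PSS, in each stimulation comparison and in both tests of a difference between films. EIF4A2 in differentiated against untreated plates reversed to 0.59 without the second untreated library, in a range from -0.49 to 0.59 over the libraries left out. In the column names replicate 1 of every group has 1 prefix and replicate 2 another, and no label says what the prefixes mark. The numbers were not shown to pair libraries: over 28 pairs of groups r ran from -0.19 to 0.29, with 16 over 0.1. A replicate block called 40 members in differentiated against untreated plates, 57 on films against untreated plates, and 6, 0, 5 and 11 on P(rGO), PEDOT:PSS, ITO and all films against differentiated plates, with 0 for stimulation. Under it EIF3E and EIF3H lost their call on ITO, and SNHG19 and SNHG29 on P(rGO). Of 3162 settings of named values, 2915 stayed on the same side of the threshold, 73 of them with a changed sign in a value that was not called, while 170 lost a call, 76 gained one and 1 reversed. No value called with all libraries changed sign under them. Depth limits genes of few counts, such as EEF1D and EEF2K.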
